A study of Homo sapiens with 112 samples.

Results

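In the prostate cancer cell line LAPC4, 5 libraries treated with 1 nM R1881 plus 2 µM darolutamide were compared with 10 libraries treated with 1 nM R1881 alone, all harvested after 8 h. These 15 libraries, chosen by their labelled treatment and time, are all that the series holds of both conditions, among 57 RNA-seq libraries of LAPC4 and 55 of the line VCaP. R1881 (metribolone) stands in for natural androgen and is not readily metabolised. Darolutamide is a clinical antagonist of the androgen response. Before treatment, cells of every group were starved of steroids for 2 days (10% serum stripped with charcoal). The comparison asks how much of the early response to androgen the higher dose of the antagonist prevents. For reference, 10 libraries with the vehicle DMSO and 5 libraries with R1881 plus 500 nM darolutamide at 8 h, the same treatments at 22 h, and the same 8 h comparison in VCaP cells were used. VCaP is likewise androgen-responsive, and each line stands for a single tumour. Neither the labels nor the methods say which replicates share a culture day, so p-values measure the spread between libraries as labelled.

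Androgens act through a nuclear receptor of the steroid family. Bound to hormone, the receptor enters the nucleus, binds DNA at paired short elements and recruits coactivators to enhancers, whereas an antagonist occupies the hormone pocket without this effect. In luminal cells of the prostate the pathway is known for driving secreted proteases of the kallikrein family, the chaperone FKBP5, the protease TMPRSS2 and enzymes of lipid metabolism, and for holding down another set of genes.

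The 15 libraries held 12188455 to 24766480 counted reads. Levels are given as CPM, read counts normalised to the library size after TMM scaling. The labelled cell type fitted its markers: the 5 luminal epithelial genes KRT8, KRT18, KRT19, EPCAM and CDH1 summed to 2005 to 2491 CPM in the 2 µM libraries and to 2076 to 2401 CPM in the R1881 libraries. ERG, which VCaP cells express from a gene fusion, had no read in any of the 15 libraries. The 7 prostate markers summed to 910 to 973 CPM with 2 µM and 887 to 950 CPM with R1881. The 4 basal markers summed to 22.6 to 31.7 and 28.1 to 35.1 CPM, with 389 to 751 reads of KRT15 per 8 h library. The 7 stromal markers summed to at most 5.57 CPM and the 5 neuroendocrine markers to at most 1.23 CPM. The 5 leukocyte markers summed to at most 0.327 CPM and the 4 endothelial markers to at most 2.13 CPM, with ranges that overlapped between the groups. In such bulk samples, fewer cells of a type and less RNA per cell cannot be told apart. No pair of libraries in a group agreed within sampling noise, so none was counted as a duplicate. A second library from the same culture could also differ by more than this, so the check does not show independent cultures.

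At 8 h, 2 µM darolutamide lowered a set of genes led by the transcriptional repressor ZBTB16 and the kallikrein KLK2, and raised a smaller set. Of 18204 genes tested, 281 (1.54%) passed an adjusted p of 0.05 in the edgeR quasi-likelihood test, 196 of them lower (1.08%) and 85 higher (0.467%) than with R1881 alone. The falls reached further than the rises. Among genes with a mean log2 CPM above 1, the largest falls were ZBTB16, KLK2, C1orf116, HPGD, ST6GALNAC1, MAOA, P2RY1, KLK3, ETS1 and AFF3, from -1.64 to -0.89 on the log2 scale. The largest rises were STAC, SCNN1G, ANXA1, CYP1A1, VTCN1, ATP13A4, ST8SIA1, CH17-472G23.2, STEAP4 and ADGRF1, from 0.61 down to 0.41. Most changes were small: the median absolute log2 fold change of the called genes was 0.27, 48 of them exceeded 0.5 and 13 exceeded 1. The median log2 fold change over all genes tested was 0.01.

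**Figure D1:**
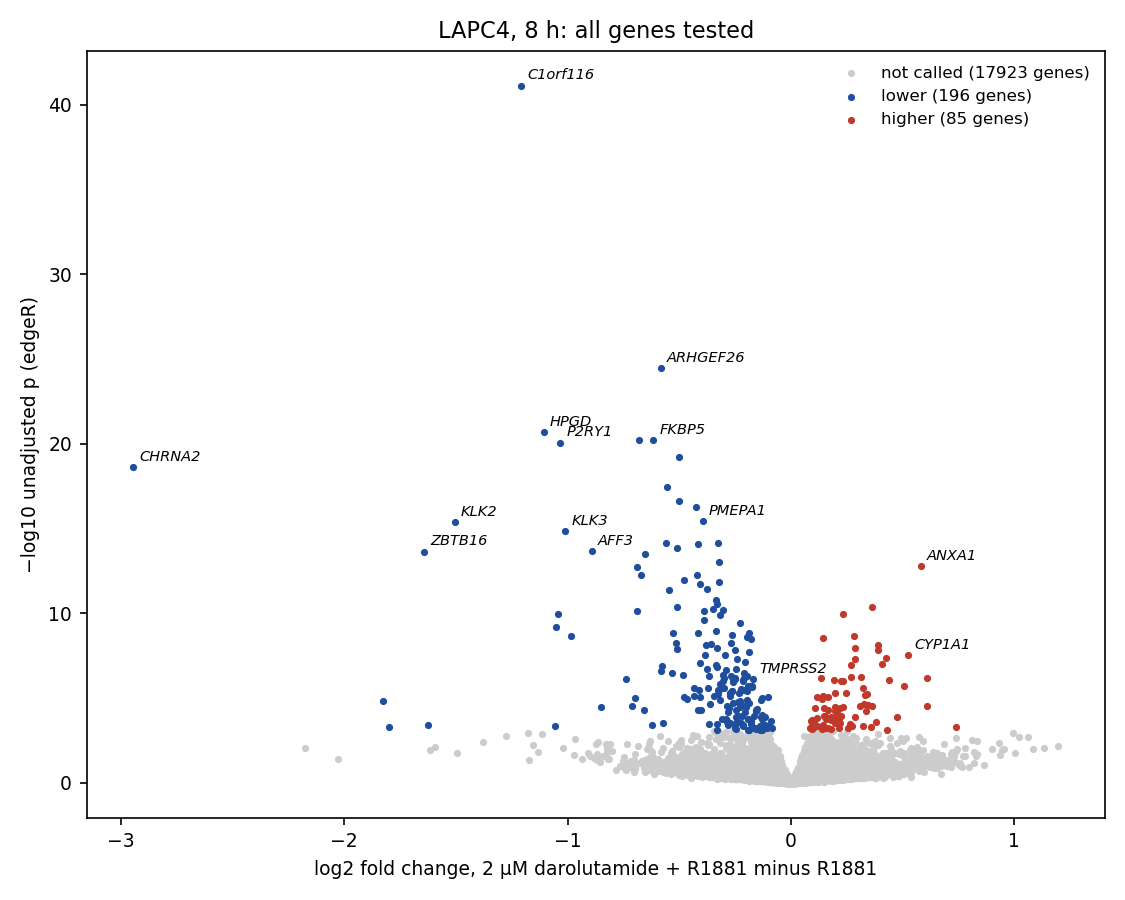
Each point is 1 of the 18204 genes tested, with its log2 fold change (2 µM darolutamide plus R1881 minus R1881 alone, 8 h) on the x axis and the negative log10 of its unadjusted p on the y axis. The 196 blue genes were lower and the 85 red genes higher at an adjusted p under 0.05, and the falls extend to -2.95 (CHRNA2) while no called rise exceeds 1.

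The kallikreins KLK2 and KLK3 are secreted serine proteases, and KLK3 encodes prostate-specific antigen. They are paralogs that lie next to each other on chromosome 19, at chr19:50861568-50880567 and chr19:50854915-50860764 of GRCh38 on the plus strand. The KLK2 level was 3.82, 2.62, 3.89, 3.88 and 4.15 CPM in replicates 1 to 5 with 2 µM darolutamide, and 8.30 to 14.99 CPM with a median of 9.87 with R1881. All 5 darolutamide libraries were below all 10 R1881 libraries, and replicate 2 was the lowest of the 5. The log2 fold change was -1.505 (SE 0.13, adjusted p = 5.70e-13).

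KLK3 was 13.0, 10.4, 12.2, 12.1 and 12.1 CPM with 2 µM darolutamide and 20.1 to 28.2 CPM with a median of 24.2 with R1881, again without overlap, a log2 fold change of -1.01 (SE 0.09, adjusted p = 1.76e-12). In DMSO libraries KLK3 lay at 9.44 to 15.6 CPM, a range that holds all 5 darolutamide values. KLK4, a related protease, had a log2 fold change of -0.70 (SE 0.14, adjusted p = 0.00128), with 20.6, 11.8, 12.2, 17.7 and 19.5 CPM against 21.7 to 31.3 CPM. KLK15 was not called. How reads that fit both KLK2 and KLK3 were counted is not given in the sources used here, so the split between these paralogs is uncertain.

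The 250 bases upstream of the KLK3 and KLK2 starts are shown because these neighbours fell together and their promoters are textbook examples of androgen control (RefSeq, GRCh38.p14, plus strand, chr19:50854665-50854914 and chr19:50873189-50873438). Capitals mark AGAACA, an arm of the androgen response element, searched on both strands.
KLK3: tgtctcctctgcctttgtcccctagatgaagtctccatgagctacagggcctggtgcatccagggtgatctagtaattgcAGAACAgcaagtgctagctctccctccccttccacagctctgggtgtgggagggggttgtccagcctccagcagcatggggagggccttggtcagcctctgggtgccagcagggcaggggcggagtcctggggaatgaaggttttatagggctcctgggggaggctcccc
KLK2: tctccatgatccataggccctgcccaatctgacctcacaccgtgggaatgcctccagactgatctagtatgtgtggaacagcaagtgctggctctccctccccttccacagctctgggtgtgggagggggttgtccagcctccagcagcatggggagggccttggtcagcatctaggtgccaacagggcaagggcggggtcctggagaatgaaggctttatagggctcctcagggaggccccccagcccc
The RefSeq start of KLK2 lies inside the longer gene span given above, which includes starts further upstream. KLK3 holds AGAACA once, beginning 170 bases upstream of the start. KLK2 holds no exact match. Its closest stretch, which begins 176 bases upstream, shares 14 of 15 bases with the KLK3 stretch that starts at the capitals, and differs by A1G, counted from the first capital base with the KLK3 base first. Aligned on this stretch without gaps, the windows share 185 of 244 bases (75.8%). AGAACA is in 7.53% of the same windows of 10138 tested genes, and in 1 of the 7 windows found for the 10 largest falls and 0 of the 8 found for the 10 largest rises. These counts describe the letters and not binding, which lies largely outside promoters for this receptor.

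Among the other large falls, ZBTB16 encodes a zinc-finger transcriptional repressor (chr11:114059041-114256765, plus strand). Its level was 5.70, 3.10, 3.19, 4.30 and 4.82 CPM with 2 µM darolutamide and 10.8 to 16.4 CPM with a median of 13.0 with R1881. The groups did not overlap, although the darolutamide libraries varied widely among themselves. The log2 fold change was -1.64 (SE 0.16, adjusted p = 2.08e-11). C1orf116 encodes a protein known as specifically androgen-regulated gene protein (chr1:207018522-207032756, minus strand) and had the smallest p of all genes. It was 147, 148, 147, 152 and 151 CPM with darolutamide and 319 to 356 CPM with a median of 348 with R1881, a log2 fold change of -1.21 (SE 0.03, adjusted p = 1.36e-37). The 5 darolutamide values lay close together, and the R1881 values stood far above them.

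HPGD encodes the dehydrogenase that inactivates prostaglandins. It fell from 12.1 to 14.3 CPM with R1881 to 6.03, 6.41, 6.60, 5.64 and 5.89 CPM with 2 µM darolutamide, a log2 fold change of -1.11 (SE 0.07, adjusted p = 1.22e-17). MAOA, a monoamine oxidase of the outer mitochondrial membrane, was 1.56, 1.85, 1.24, 2.13 and 1.74 CPM against 2.70 to 4.22 CPM, a log2 fold change of -1.04 (SE 0.13, adjusted p = 4.99e-08). P2RY1, a G protein-coupled receptor for ADP, was 6.65, 8.55, 7.25, 6.61 and 6.72 CPM against 13.5 to 15.9 CPM, a log2 fold change of -1.03 (SE 0.07, adjusted p = 2.54e-17). In each of these genes every darolutamide library was below every R1881 library.

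ST6GALNAC1, a sialyltransferase that caps O-linked glycans, was 1.52, 1.25, 1.57, 1.39 and 1.08 CPM with 2 µM darolutamide and 2.07 to 3.69 CPM with R1881, a log2 fold change of -1.05 (SE 0.14, adjusted p = 2.56e-07). The transcription factor gene ETS1 was 1.68, 1.33, 1.35, 1.71 and 2.10 CPM against 2.84 to 4.19 CPM, and had a log2 fold change of -0.98 (SE 0.14, adjusted p = 7.43e-07). AFF3, which encodes a nuclear protein tied to transcription elongation, was 4.39, 4.35, 3.89, 4.67 and 4.15 CPM against 7.51 to 8.35 CPM, with a log2 fold change of -0.89 (SE 0.09, adjusted p = 2.08e-11). These are low levels, near 1 to 8 CPM, and the groups did not overlap in any of these genes. The largest falls and rises were picked with the same libraries, so a lack of overlap in them is partly due to that choice. CHRNA2, a subunit of nicotinic acetylcholine receptors, was chosen after its values were seen because it fell furthest of all called genes. It was 0.451, 0.443, 0.541, 0.508 and 0.564 CPM with darolutamide and 2.80 to 5.07 CPM with a median of 3.98 with R1881, a log2 fold change of -2.95 (SE 0.21, adjusted p = 5.41e-16), at a mean log2 CPM just under 1.

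FKBP5 and TMPRSS2, which the study names, and PMEPA1 of the androgen-induced list moved by smaller steps from higher levels. FKBP5, a chaperone of steroid receptors, was 132, 157, 146, 147 and 136 CPM with 2 µM darolutamide and 206 to 232 CPM with a median of 220.4 with R1881, a log2 fold change of -0.62 (SE 0.04, adjusted p = 2.25e-17). PMEPA1, an inhibitor of TGF-beta signalling, was 40.3, 42.7, 41.6, 42.3 and 42.9 CPM against 52.2 to 57.8 CPM, a log2 fold change of -0.40 (SE 0.03, adjusted p = 5.65e-13). TMPRSS2, a membrane-bound serine protease, was 119, 115, 113, 115 and 122 CPM against 127 to 136 CPM, a log2 fold change of only -0.17 (SE 0.03, adjusted p = 1.34e-04). Even for TMPRSS2 the groups did not overlap.

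**Figure D2:**
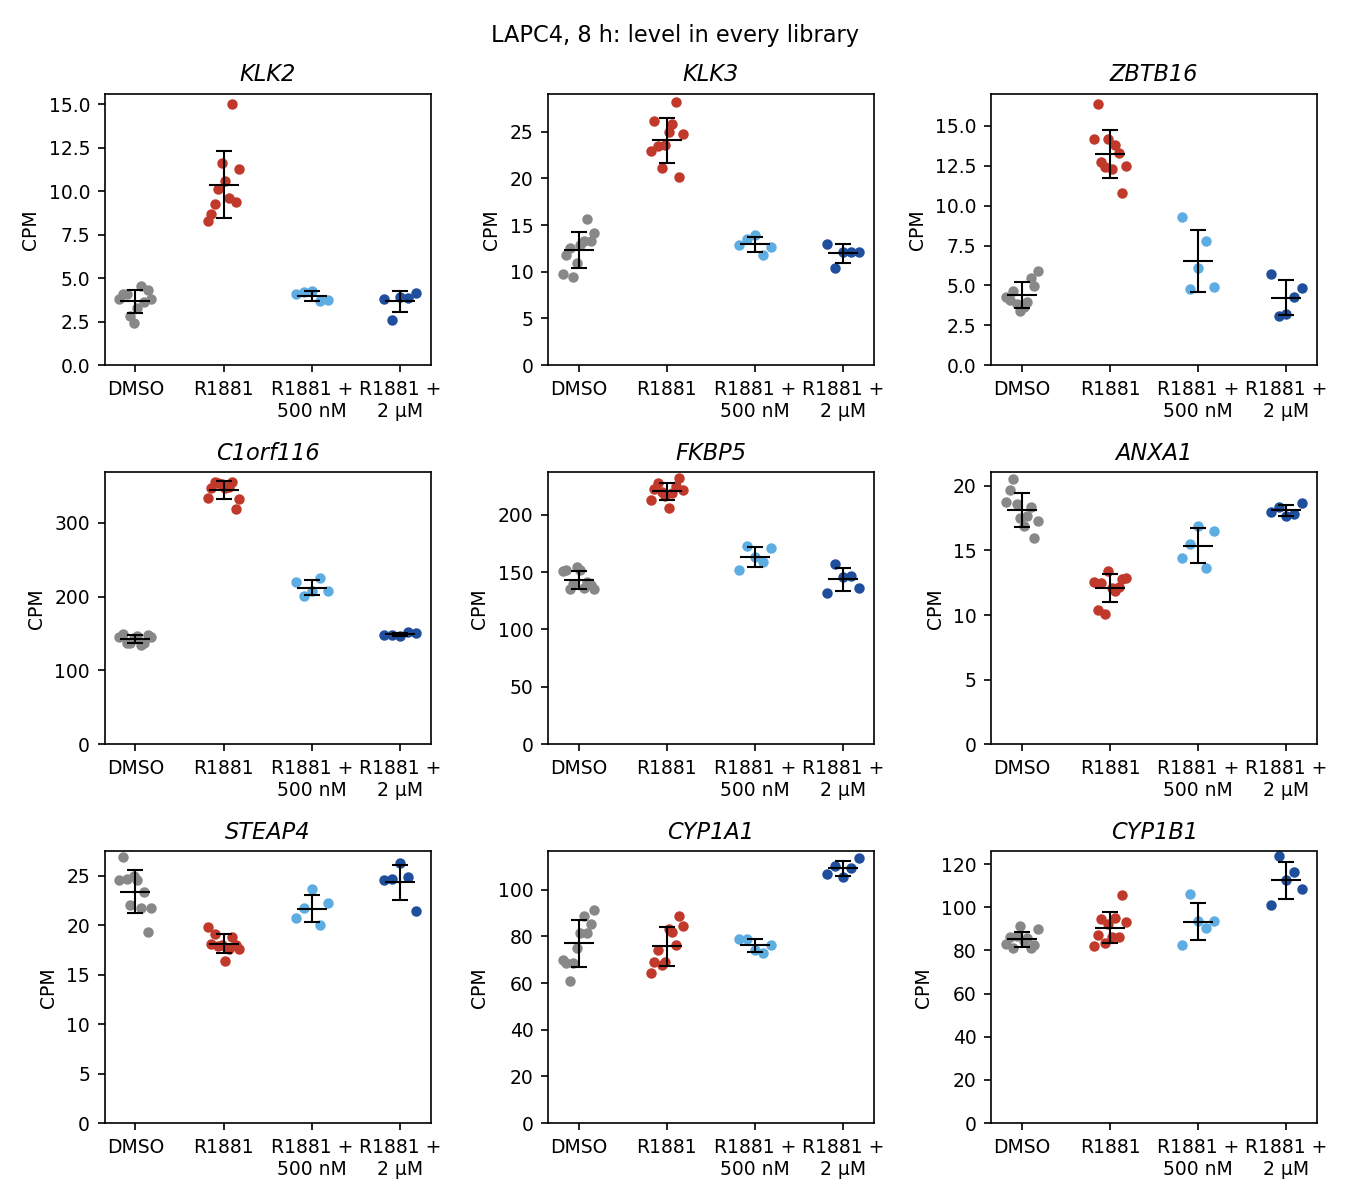
CPM (y axis, from 0) of 9 genes in every LAPC4 library at 8 h, by treatment on the x axis (10 DMSO, 10 R1881, 5 with 500 nM and 5 with 2 µM darolutamide plus R1881), with each group's mean and SD in black. KLK2, KLK3, ZBTB16, C1orf116 and FKBP5 are highest and ANXA1 lowest with R1881, and CYP1A1 stands at 106 to 114 CPM with 2 µM darolutamide, above all other libraries.

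A list of 72 androgen-induced genes from general knowledge held 69 tested members, of which 26 fell, 2 rose and 41 did not pass the test, against 1.08% lower and 0.467% higher among all genes. Its median log2 fold change was -0.10. By role, the 4 kallikreins had 3 falls, the 9 transcription factors and coregulators 4, the 11 metalloreductases, transporters and channels 5, the 19 chaperones and signalling genes 5, the 17 lipid and other metabolic enzymes 7, and the 7 other proteases and secreted proteins 2. The 2 cell division genes of the list were not called. Further members, chosen after their values were seen, were the elongation factor partner EAF2 (-0.67), the vesicle GTPase RAB3B (-0.65), the prostate solute carrier SLC45A3 (-0.58), the cold-sensing channel TRPM8 (-0.48) and the metalloreductases STEAP2 (-0.36) and STEAP1 (-0.25), all with an adjusted p under 0.05. The members that rose were STEAP4, described below, and ACPP, which encodes prostatic acid phosphatase (log2 0.23, SE 0.05, adjusted p = 0.00355). Both were lower with R1881 than with DMSO in these cells, with log2 fold changes of -0.37 (SE 0.06, adjusted p = 2.53e-06) and -0.22 (SE 0.04, adjusted p = 2.73e-04). Several textbook members had values near 0 and were not called, among them NDRG1 (-0.01), ACSL3 (0.01) and NCAPD3 (-0.05).

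Of 8 tested genes known to be repressed by androgen, 1 rose, against 0.467% of all genes, and 7 were not called, with a median of 0.16. The member that rose was PEG10, a gene derived from a retrotransposon, with 246, 282, 270.2, 264 and 263 CPM against 214 to 253 CPM with R1881, a log2 fold change of 0.16 (SE 0.04, adjusted p = 0.0380) that is no longer called under several of the alternatives. The glucuronidation enzymes UGT2B15 and UGT2B17 had log2 values of 0.19 (SE 0.07, adjusted p = 0.309) and 0.21 (SE 0.09, adjusted p = 0.476), and as close paralogs their counts are uncertain. Of 14 tested genes that glucocorticoids and androgens both induce, 3 fell: ZBTB16, FKBP5 and the kinase SGK1 (log2 -0.25, SE 0.04, adjusted p = 1.18e-04), and 11 were not called. Among all genes, 1.08% fell. SGK1 was 26.9, 28.2, 25.5, 27.1 and 27.3 CPM with darolutamide and 29.1 to 34.98 CPM with R1881, without overlap.

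**Figure D3:**
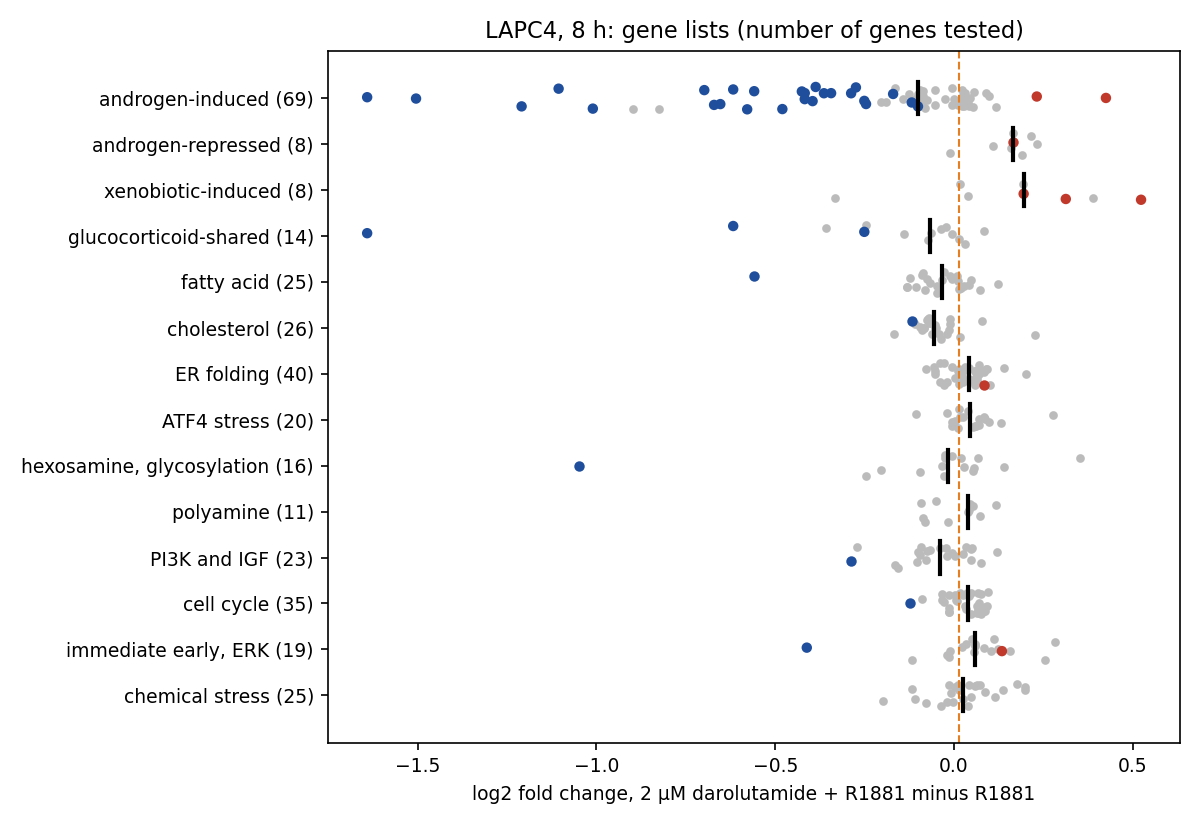
Log2 fold change (x axis, 2 µM darolutamide plus R1881 minus R1881 alone, 8 h) of every tested member of 14 gene lists (y axis, with the number tested), in red or blue where called higher or lower and in grey where not. Black bars are list medians and the dashed line is the median of all genes (0.01). The androgen-induced list has the most called members, 26 lower and 2 higher of 69 tested. In the much smaller xenobiotic-induced list 3 of 8 were called, all higher.

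The 10 largest rises lay close to each other in size. ANXA1, a phospholipid-binding protein known for its anti-inflammatory role, was 18.01, 18.4, 17.6, 17.8 and 18.7 CPM with 2 µM darolutamide and 10.1 to 13.4 CPM with a median of 12.3 with R1881. The groups did not overlap, and the log2 fold change was 0.58 (SE 0.06, adjusted p = 1.32e-10). STEAP4, a metalloreductase, was 24.5, 24.7, 26.3, 24.9 and 21.5 CPM against 16.4 to 19.8 CPM, a log2 fold change of 0.43 (SE 0.07, adjusted p = 1.04e-05). VTCN1, an inhibitory ligand for T cells, was 15.6, 17.3, 16.2, 16.2 and 15.3 CPM against 8.68 to 12.5 CPM, and rose by 0.50 (SE 0.09, adjusted p = 3.24e-04).

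ADGRF1, an adhesion G protein-coupled receptor, was 80.7, 93.1, 89.9, 82.4 and 82.6 CPM with darolutamide and 59.0 to 73.1 CPM with R1881, a log2 fold change of 0.41 (SE 0.07, adjusted p = 2.36e-05). ST8SIA1, a sialyltransferase of ganglioside synthesis, was 13.8, 17.2, 14.8, 14.6 and 13.6 CPM against 9.71 to 12.1 CPM, a log2 fold change of 0.44 (SE 0.08, adjusted p = 1.57e-04). The groups did not overlap in ANXA1, STEAP4, VTCN1, ADGRF1 or ST8SIA1. In contrast, they overlapped in SCNN1G, the gamma subunit of the epithelial sodium channel, with 4.72, 3.39, 3.89, 3.84 and 3.08 CPM against 1.88 to 3.85 CPM and a log2 fold change of 0.61 (SE 0.11, adjusted p = 1.18e-04).

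STAC, an adaptor of voltage-gated calcium channels, was 2.95, 2.94, 2.97, 1.57 and 2.56 CPM with darolutamide, where replicate 4 lay within the R1881 range of 1.38 to 1.97 CPM, and its log2 fold change was 0.61 (SE 0.13, adjusted p = 0.00314). ATP13A4, a P-type ATPase, was 4.72, 4.80, 5.41, 6.98 and 5.64 CPM against 2.78 to 4.76 CPM, and its log2 fold change of 0.48 (SE 0.12, adjusted p = 0.0112) was 0.38 (adjusted p = 0.155) without replicate 4 of the 2 µM group. CH17-472G23.2, which matched no entry of the annotation used here, was 2.42 to 2.92 CPM with darolutamide against 1.40 to 2.63 CPM, and its log2 fold change was 0.43 (SE 0.12, adjusted p = 0.0496), at the edge of the threshold. In STAC, ATP13A4 and CH17-472G23.2 the groups overlapped.

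CYP1A1 and CYP1B1, cytochrome P450 enzymes of the aryl hydrocarbon receptor (AHR) pathway that metabolise foreign compounds, rose against both R1881 and DMSO. CYP1A1 was 107, 110.3, 106, 109 and 114 CPM with 2 µM darolutamide, above all 10 R1881 libraries at 64.2 to 88.7 CPM with a median of 75.2, a log2 fold change of 0.52 (SE 0.08, adjusted p = 7.45e-06). R1881 alone left it at a log2 difference from DMSO of -0.02 (95% confidence interval -0.16 to 0.11), and 500 nM darolutamide left it at 78.7, 78.9, 74.2, 72.7 and 76.5 CPM, a difference of 0.01 from R1881 (interval -0.16 to 0.17). The control replicates split in CYP1A1: R1881 replicates 1 to 5 lay at 64.2 to 74.0 CPM and replicates 6 to 10 at 76.5 to 88.7, and DMSO replicates at 61.0 to 74.9 and 81.5 to 91.5. Against the lower replicates the log2 fold change was 0.66 and against the higher ones 0.40, with adjusted p-values of 9.43e-10 and 4.33e-06. In ELOVL7, VTCN1 and ADGRF1, DMSO replicates 1 to 5 also lay apart from 6 to 10, while the R1881 replicates overlapped. Over all genes, R1881 replicates 6 to 10 against 1 to 5 gave 0 called genes of 18204. An unadjusted p under 0.05 was nevertheless found for 1381 genes in this split, against 1428 for 2 µM darolutamide against R1881. The 0 calls therefore do not show that the control replicates are alike.

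CYP1B1 was 101, 124, 113, 116.4 and 109 CPM with 2 µM darolutamide and 82.1 to 105 CPM with a median of 89.6 with R1881. The ranges overlapped through 1 R1881 library, and the log2 fold change was 0.31 (SE 0.05, adjusted p = 1.08e-04). Of the 8 tested AHR targets, 3 rose, against 0.467% of all genes, and 5 were not called. Their median was 0.19, against 0.01 for all genes. The values ran from -0.33 to 0.52, and 1 member, not called, was below 0. The remaining rise was TIPARP, an ADP-ribosyltransferase of the feedback on this pathway, at 0.19 (SE 0.05, adjusted p = 0.0173). Among the members not called, CYP1A2 had a log2 value of 0.39 (SE 0.11, adjusted p = 0.0767), the repressor AHRR 0.02 (SE 0.12, adjusted p = 0.999) and the quinone reductase NQO1 0.04 (SE 0.03, adjusted p = 0.895). CYP1A1 and CYP1A2 are neighbouring paralogs.

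The 250 bases upstream of CYP1A1 are shown because this gene rose with 2 µM darolutamide against every other treatment at 8 h (RefSeq, GRCh38.p14, minus strand, chr15:74725529-74725778). Capitals mark GCGTG, the core of the xenobiotic response element, searched on both strands.
CYP1A1: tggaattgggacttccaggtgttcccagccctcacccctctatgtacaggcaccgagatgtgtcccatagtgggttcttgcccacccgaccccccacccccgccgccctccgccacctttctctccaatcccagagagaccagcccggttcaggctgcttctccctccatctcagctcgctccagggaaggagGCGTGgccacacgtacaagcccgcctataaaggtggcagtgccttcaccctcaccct
The window holds it once, beginning 57 bases upstream of the start. This core is in 45.5% of the same windows of 10138 tested genes, and in 4 of the 8 windows found for the 10 largest rises and 2 of the 7 found for the 10 largest falls. Here too the counts describe the letters and not binding, and a link of this core to the rise was not tested.

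Few metabolic and growth genes were called at 8 h, where 1.54% of all genes were called. Several lists nevertheless held more members at an unadjusted p under 0.05 than the 7.84% of all genes. These members were 8 of 25 fatty acid genes, 5 of 26 cholesterol genes, 7 of 23 PI3K and IGF genes, 4 of 35 cell cycle genes, 3 of 19 immediate early and ERK genes, 6 of 16 glycosylation genes and 9 of 40 endoplasmic reticulum genes. Of 25 fatty acid genes tested, 1 fell and 24 were not called, with a median of -0.03: the elongase ELOVL7 was 57.5, 62.4, 64.7, 60.2 and 54.3 CPM with darolutamide and 82.5 to 91.9 CPM with R1881, a log2 fold change of -0.56 (SE 0.05, adjusted p = 8.02e-12). Acetyl-CoA carboxylase ACACA and the desaturase SCD had log2 values of -0.13 (SE 0.04, adjusted p = 0.0935) and -0.11 (SE 0.03, adjusted p = 0.121). Of 26 cholesterol genes tested, 23 had values below 0, with a median of -0.06, compared with 7834 of the 18204 genes tested. FDPS and HMGCS1 of this list were not called and had log2 values of -0.11 (SE 0.04, adjusted p = 0.278) and -0.09 (SE 0.04, adjusted p = 0.385).

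Of 23 genes of the PI3K and IGF pathways, 1 fell and 22 were not called, with a median of -0.04. The member that fell was INPP4B, a lipid phosphatase that limits AKT signalling, at -0.29 (SE 0.06, adjusted p = 0.00315), and with R1881 replicates 6 to 10 alone as controls its value was -0.20 (adjusted p = 0.254). DESeq2 called 3 members of this list and 3 fatty acid genes. The receptor gene IGF1R had a log2 value of -0.16 (SE 0.05, adjusted p = 0.0893) and the regulatory subunit PIK3R3 0.12 (SE 0.04, adjusted p = 0.0805). Of 35 cell cycle genes, 1 fell and 34 were not called, with a median of 0.04. The G1 cyclin CCND1 had a log2 fold change of -0.12 (SE 0.03, adjusted p = 0.0274), a small step that was not called without replicate 2 of the 2 µM group (-0.09, adjusted p = 0.281). CDKN1B and CCNA2 had log2 values of 0.10 (SE 0.03, adjusted p = 0.271) and 0.09 (SE 0.04, adjusted p = 0.472).

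Of 19 immediate early and ERK feedback genes, 1 rose, 1 fell and 17 were not called. The phosphatase DUSP4 was 290.1, 292, 294, 288 and 302 CPM with darolutamide and 259 to 275 CPM with R1881, a log2 fold change of 0.13 (SE 0.02, adjusted p = 1.19e-04). The growth regulator MYC was 11.7, 10.7, 10.7, 10.5 and 12.4 CPM against 13.2 to 16.3 CPM, a log2 fold change of -0.41 (SE 0.08, adjusted p = 4.92e-04). Both differed without overlap between the groups. DUSP5 had a log2 value of 0.25 (SE 0.09, adjusted p = 0.205).

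Of 16 hexosamine and glycosylation genes, ST6GALNAC1 fell and 15 were not called, with a median of -0.02. GNE of sialic acid synthesis and the glycosyltransferase GALNT3 had log2 values of -0.20 (SE 0.06, adjusted p = 0.101) and 0.14 (SE 0.04, adjusted p = 0.110). Of 40 genes of protein folding and quality control in the endoplasmic reticulum, the chaperone HSPA5 rose by only 0.08 (SE 0.02, adjusted p = 0.0403) on the log2 scale, a call lost under DESeq2 (adjusted p = 0.0887), and 39 were not called, with a median of 0.04. CALR and PDIA6 had log2 values of 0.09 (SE 0.03, adjusted p = 0.0773) and 0.06 (SE 0.02, adjusted p = 0.342).

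In 3 lists 0 members were called by edgeR and 0 by DESeq2. These were 20 genes of the ATF4 stress pathway, with a median of 0.05 and 2 members at an unadjusted p under 0.05, 11 polyamine genes, with a median of 0.04 and 1 such member, and 25 chemical stress genes of the NRF2, xenobiotic, heat shock and p53 responses, with a median of 0.02 and 2 such members. Their members with the smallest p were CEBPB (log2 0.28, SE 0.15, adjusted p = 0.731), ATF3 (log2 0.08, SE 0.04, adjusted p = 0.517) and DDIT3 (log2 0.13, SE 0.06, adjusted p = 0.566) for ATF4, AMD1 (log2 -0.09, SE 0.04, adjusted p = 0.427), SAT1 (log2 0.12, SE 0.06, adjusted p = 0.654) and ARG2 (log2 0.07, SE 0.04, adjusted p = 0.709) for polyamines, and SESN1 (log2 0.14, SE 0.05, adjusted p = 0.205), GCLM (log2 -0.11, SE 0.05, adjusted p = 0.631) and HSPA8 (log2 0.06, SE 0.04, adjusted p = 0.810) for chemical stress.

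The doses differed in few genes at 8 h. Between 2 µM and 500 nM darolutamide, 5 genes (0.0275%) passed the test: C1orf116, ARHGEF26, P2RY1 and ELOVL7 were lower and CYP1A1 was higher with 2 µM. C1orf116 stood at 220.0, 201, 207, 225 and 208 CPM with 500 nM, between the 2 µM and the R1881 libraries with no overlap, and the doses differed by -0.51 (SE 0.03, adjusted p = 3.03e-17) on the log2 scale. ARHGEF26, a guanine nucleotide exchange factor, was 64.7, 70.9, 67.8, 69.6 and 64.8 CPM with 2 µM and 78.2, 86.0, 81.5, 83.3 and 81.9 CPM with 500 nM, against 95.8 to 106 CPM with R1881, and the doses differed by -0.28 (SE 0.04, adjusted p = 8.63e-07). P2RY1 was 9.32, 10.1, 10.6, 10.2 and 9.85 CPM with 500 nM, a difference of -0.48 (SE 0.08, adjusted p = 4.46e-04). ELOVL7 was 71.6, 75.5, 75.9, 74.1 and 75.2 CPM with 500 nM, a difference of -0.32 (SE 0.06, adjusted p = 0.00702). For CYP1A1 the difference was 0.52 (SE 0.09, adjusted p = 0.00545).

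For KLK2 and KLK3 the difference between the doses was -0.13 (95% confidence interval -0.43 to 0.18) and -0.12 (-0.32 to 0.09), and neither passed the test. KLK2 was 4.11, 4.19, 4.29, 3.67 and 3.73 CPM and KLK3 12.8, 13.5, 13.9, 11.8 and 12.7 CPM with 500 nM. For FKBP5 the difference was -0.19 (-0.28 to -0.09), for PMEPA1 -0.14 (-0.22 to -0.07), for TMPRSS2 -0.02 (-0.09 to 0.05) and for ZBTB16 -0.63 (-0.99 to -0.27). The intervals of FKBP5, PMEPA1 and ZBTB16 left out 0, but no gene of this group passed after adjustment over all genes. The 2 doses share the R1881 controls, against which 500 nM gave 114 called genes (0.626%).

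Against DMSO, cells with R1881 plus 2 µM darolutamide differed in 2 genes (0.011%) by edgeR and likewise 2 by DESeq2. By edgeR, 601 of 18204 genes had an unadjusted p under 0.05, fewer than the 1428 in the comparison with R1881. The 2 called genes were CYP1A1 (log2 0.50, SE 0.08, adjusted p = 7.40e-04) and CYP1B1 (log2 0.40, SE 0.05, adjusted p = 2.26e-05), both higher with darolutamide, with no overlap between the 5 darolutamide and the 10 DMSO libraries. R1881 alone against DMSO, which shares the DMSO libraries, gave 481 called genes (2.64%). For the 10 largest falls the remaining log2 difference from DMSO lay between -0.15 (ST6GALNAC1) and 0.16 (HPGD). These falls were picked with the same 5 darolutamide libraries, so the remaining differences are not independent of that choice. The 95% confidence interval was -0.28 to 0.26 for KLK2, -0.23 to 0.13 for KLK3, -0.08 to 0.08 for FKBP5 and -0.05 to 0.07 for TMPRSS2. It left out 0 for C1orf116 (0.01 to 0.12) and HPGD (0.02 to 0.31), neither of which passed after adjustment (adjusted p = 0.9996 for both). Where a gene's interval spans 0, a remaining difference up to its bounds is not excluded by these libraries. The count of differences from DMSO depended on the controls, with 42 genes against DMSO replicates 1 to 5 and 6 against replicates 6 to 10. It also depended on the fit, with 8 genes when a GC term was added and 1 with the replicate number as a block. With both it was 955 genes, and 3266 had an unadjusted p under 0.05. The small count is therefore tied to the fit without these terms.

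**Figure D4:**
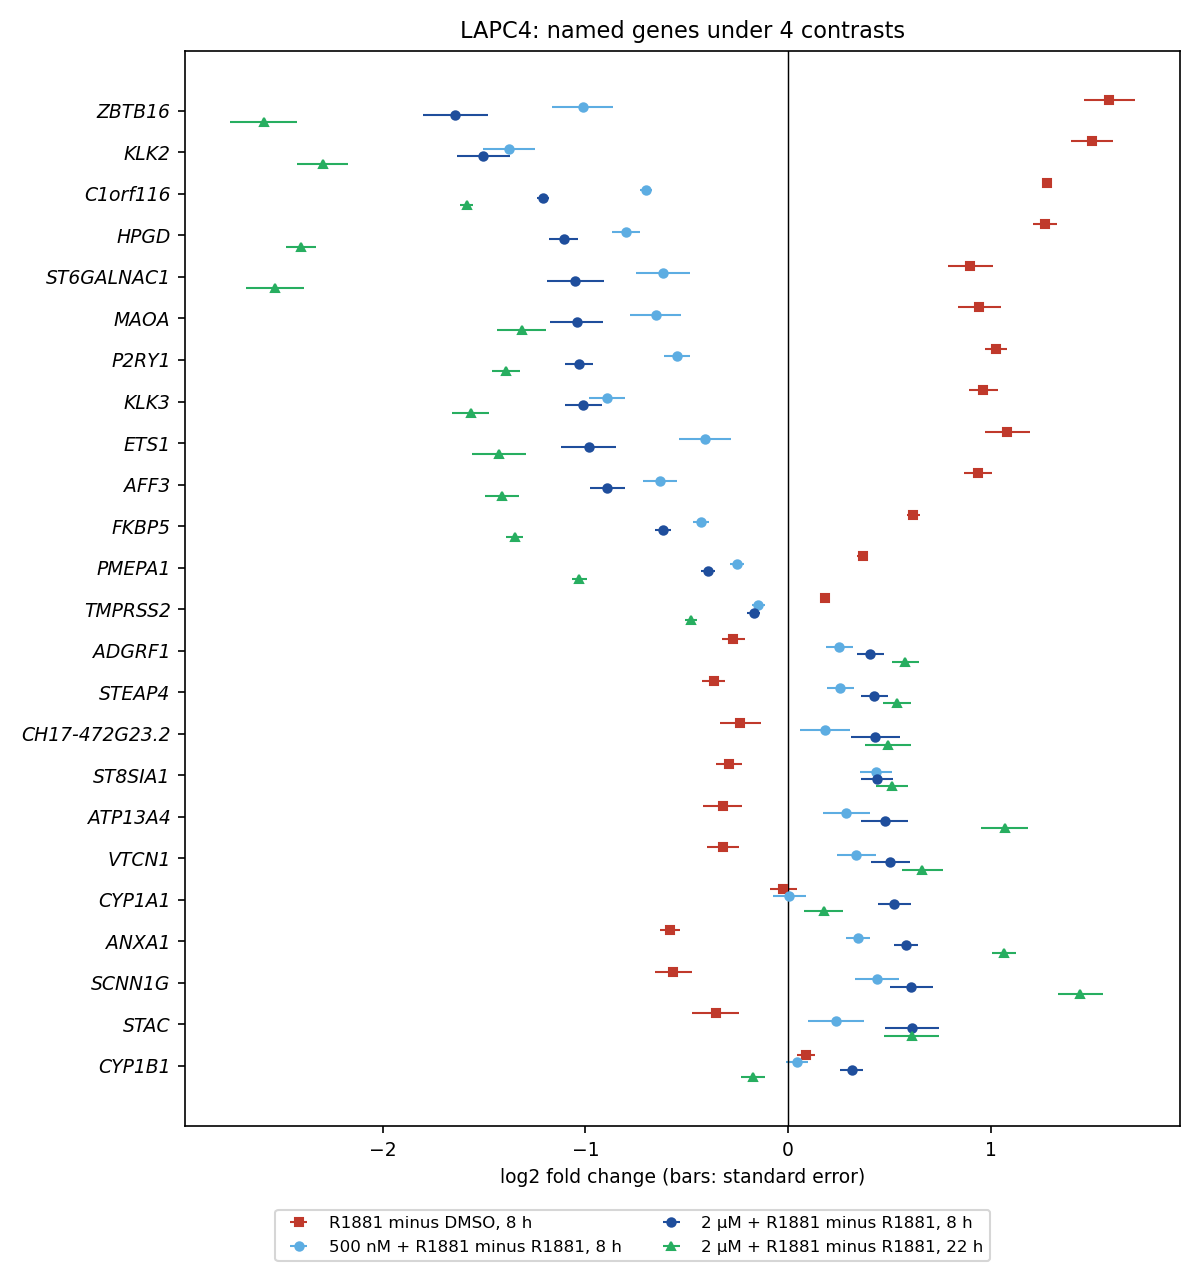
Log2 fold changes (x axis, with standard errors) of 24 genes (y axis) for R1881 against DMSO, for 500 nM and 2 µM darolutamide plus R1881 against R1881 at 8 h, and for 2 µM at 22 h. The first 3 contrasts share the R1881 libraries, and most genes were picked by the 2 µM contrast at 8 h. Opposite values of R1881 and darolutamide are therefore partly built in. Falls and rises mirror the R1881 values, except for CYP1A1 and CYP1B1, whose R1881 values are -0.02 and 0.09, and most 22 h values lie further from 0 than the 8 h ones.

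At 22 h, in 15 libraries that the 8 h comparison did not use, nearly all of the 281 genes changed in the same direction. Of them, 265 were called at 22 h in the same direction, 0 in the opposite direction and 16 were not called, against 10.5% called among all 18204 genes at 22 h. The sign was the same in 98.2% of the 281 genes and in 62.1% of all genes. The 196 falls had a median log2 fold change of -0.29 at 8 h and -0.53 at 22 h, and the 85 rises one of 0.22 and 0.37.

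The difference between the times was tested in its own contrast, in which 323 genes (1.77%) were called. ST6GALNAC1, HPGD, KLK4 and GMPR, a reductase of purine metabolism, fell further at 22 h, with differences of -1.48 (SE 0.21, adjusted p = 2.56e-06), -1.30 (SE 0.10, adjusted p = 1.00e-14), -1.08 (SE 0.20, adjusted p = 3.15e-04) and -1.05 (SE 0.22, adjusted p = 0.00188) on the log2 scale. HPGD, for example, had 7.08, 7.60, 6.64, 7.43 and 7.05 CPM with 2 µM darolutamide and 33.0 to 42.4 CPM with R1881 at 22 h. SCNN1G, SCNN1B (the beta subunit of the same sodium channel), ZBBX and the metalloprotease TLL1 were more positive at 22 h, by 0.83 (SE 0.16, adjusted p = 4.30e-04), 0.73 (SE 0.11, adjusted p = 6.96e-06), 0.76 (SE 0.19, adjusted p = 0.0144) and 0.64 (SE 0.15, adjusted p = 0.00750). At 8 h, SCNN1B, ZBBX, TLL1 and GMPR had not been called. Of the 23 genes made up of the 10 rises, the 10 falls, FKBP5, PMEPA1 and TMPRSS2, 22 were called in the same direction at 22 h, and the difference was called for 14, each with the larger change at 22 h.

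The exception was CYP1A1, with 14.97, 16.2, 12.9, 15.7 and 16.3 CPM with 2 µM darolutamide and 10.1 to 15.9 CPM with R1881 at 22 h, a log2 fold change of 0.18 (SE 0.09, adjusted p = 0.295). The level itself was lower at 22 h, since R1881 libraries held 64.2 to 88.7 CPM at 8 h. The change in the effect between the times was -0.35 (SE 0.13, adjusted p = 0.215), so the effect was not shown to differ. CYP1B1 had a log2 value of -0.17 (SE 0.06, adjusted p = 0.0517) at 22 h and its difference from 8 h was -0.49 (SE 0.08, adjusted p = 8.20e-05).

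In VCaP cells the same treatment at 8 h changed many more genes, and those that responded in LAPC4 did not always move the same way. In a fit over 16578 genes expressed in both lines, 8949 genes (54%) were called in VCaP and 202 (1.22%) in LAPC4, and the effect differed between the lines for 6611 (39.9%). Of the 202 LAPC4 genes, 104 were called in VCaP in the same direction, 78 in the opposite direction and 20 not at all. The sign was the same for 56.4% of these genes and for 53% of all genes.

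Of the 23 genes above (rises, falls, FKBP5, PMEPA1 and TMPRSS2), 19 were tested in both lines: the effect differed for 18, and 7 were called in opposite directions. Most of these genes were picked as extremes in LAPC4, and the same LAPC4 libraries enter the difference between the lines. The count of 18 is therefore partly due to the choice. C1orf116, MAOA, P2RY1 and PMEPA1 fell in LAPC4 and rose in VCaP, with VCaP log2 fold changes of 0.24, 0.69, 2.38 and 0.43 and differences between the lines of -1.46 (SE 0.05, adjusted p = 1.78e-51), -1.73 (SE 0.13, adjusted p = 1.54e-22), -3.41 (SE 0.10, adjusted p = 5.15e-55) and -0.83 (SE 0.04, adjusted p = 6.72e-39). On the CPM scale of the fit over both lines, P2RY1, for example, was 7.43 ± 0.738 CPM (SD, n = 10) with R1881 and 38.7 ± 3.34 CPM (SD, n = 5) with darolutamide in VCaP, and 13.5 ± 0.709 CPM (SD, n = 10) and 6.60 ± 0.888 CPM (SD, n = 5) in LAPC4. CYP1A1, STEAP4 and SCNN1G rose in LAPC4 and fell in VCaP, where their log2 fold changes were -2.33, -1.40 and -2.45, and the differences were 2.85 (SE 0.14, adjusted p = 2.49e-34), 1.82 (SE 0.09, adjusted p = 2.53e-35) and 3.05 (SE 0.42, adjusted p = 8.23e-10).

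Among the largest differences between the lines, P2RY1 moved in both, whereas the other genes named here changed mainly in VCaP. TIPARP and RDH10, a retinol dehydrogenase, differed by 4.51 (SE 0.09, adjusted p = 1.58e-69) and 4.37 (SE 0.10, adjusted p = 1.60e-64): RDH10 was 25.01 ± 1.58 CPM (SD, n = 10) with R1881 and 23.3 ± 1.71 CPM (SD, n = 5) with darolutamide in LAPC4, and 1016 ± 120.3 CPM (SD, n = 10) and 45.7 ± 2.95 CPM (SD, n = 5) in VCaP. The ERK pathway inhibitor SPRY4, the cadherin CDH10 and the pseudokinase TRIB1 differed by -4.45 (SE 0.24, adjusted p = 5.28e-32), -3.35 (SE 0.28, adjusted p = 1.76e-19) and -3.27 (SE 0.08, adjusted p = 4.77e-64), with a rise in VCaP. The sulfotransferase CHST1 differed by 4.61 (SE 0.81, adjusted p = 9.63e-07), and in VCaP it was only 0.794 ± 0.395 CPM (SD, n = 10) with R1881. The ephrin EFNA5 was 52.4 ± 4.08 CPM (SD, n = 5) with darolutamide in LAPC4 and had 0 reads in all 5 VCaP libraries with darolutamide. Against a floor of 3 reads over these 5 libraries, its VCaP level with darolutamide was at least 17.2-fold lower than with R1881 (mean 0.544 CPM).

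**Figure D5:**
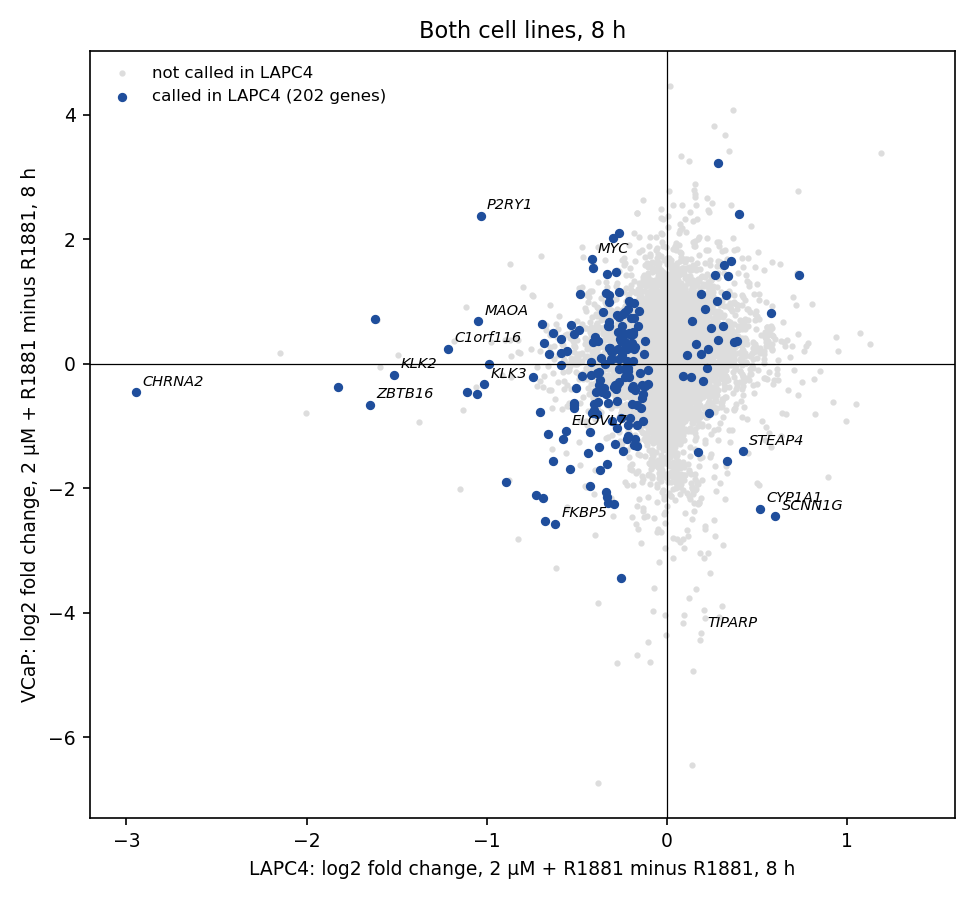
Effect of adding 2 µM darolutamide to R1881 for 8 h (log2 fold change) in LAPC4 (x axis) and VCaP (y axis), for 16578 genes expressed in both lines. The 202 genes called in LAPC4 are blue and lie in all 4 quadrants, with P2RY1 and MAOA lower in LAPC4 and higher in VCaP, and CYP1A1, STEAP4 and SCNN1G the reverse.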

How the data were processed

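Per the labels and the paper's methods, the authors sequenced stranded poly-A libraries as single-end reads, used STAR and GRCh38 for alignment and featureCounts for counting, and deposited raw counts, which entered the fits as they are. Which annotation and strand option were set, and how multi-mapping reads were handled, is not given in the sources used here. Values of genes that overlap or have close copies are therefore uncertain. The paper's methods state 5 biological replicates per condition, while the labels give 10 R1881 and 10 DMSO libraries at 8 h. All were used.

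A minimum of 10 reads in 4 or more LAPC4 libraries kept 18204 of 58684 genes. All 57 LAPC4 libraries were fitted as 8 groups in edgeR 4.0.16 (R 4.3.3) with TMM scaling, glmQLFit and glmQLFTest, and a gene was called where its p, adjusted by Benjamini-Hochberg over all genes tested, was under 0.05. The cell-line contrast used the libraries of both lines. Each standard error is the size of the log2 fold change divided by the root of its F statistic. Named genes are the 10 largest rises and falls with a mean log2 CPM above 1, the 3 smallest p per list, the 4 largest positive and negative differences of each further comparison, and KLK2, KLK3, TMPRSS2, FKBP5 and PMEPA1. Members and lists were chosen with earlier results of these data known, so lists carry no test. A single gene that the rule names is not reported here. Positions come from GENCODE 44. RefSeq promoter windows were found for 19 of 26 genes looked up. The alternatives were DESeq2 1.42.0, other filters, fewer groups, fewer controls, the replicate number as a block, a GC term (for the 84.0% of genes with a known GC content) and the omission of single libraries.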

Additional observations from a re-analysis of the deposited data

Results flagged for a closer look

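In 6 of 236 groups of libraries, over 59 genes, the highest or lowest library stood apart by Dixon's criterion, which flags about 1 in 20 groups by chance. With 2 µM darolutamide, these were STAC at 1.57 CPM in replicate 4 and KLK2 at 2.62 CPM in replicate 2, both the lowest. With R1881, ETS1 was highest at 4.19 CPM in replicate 4 and CCNA2 lowest at 65.8 CPM in replicate 7. With 500 nM, FDPS was lowest at 347 CPM in replicate 2 and DUSP4 highest at 303 CPM in replicate 1.

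The effect of 2 µM darolutamide in LAPC4 differed between the times for 31 of the 71 named genes, by the test of the difference itself (22 h minus 8 h, log2). Among all 18204 genes tested the share was 1.77%. Some named genes were picked because this difference was called, so part of the count was fixed by the choice. For the 9 whose difference is printed above, the values were 0.83 for SCNN1G, 0.76 for ZBBX, 0.73 for SCNN1B, 0.64 for TLL1, -1.48 for ST6GALNAC1, -1.30 for HPGD, -1.08 for KLK4, -1.05 for GMPR and -0.49 for CYP1B1.

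The 8 h effect differed between the cell lines for 57 of the 64 named genes tested in both, again by a direct test (LAPC4 minus VCaP, log2). Among all 16578 genes tested the share was 39.9%. Here too some named genes were picked because the difference was called, which fixed part of the count. For the 14 whose difference is printed above, the values were 6.59 for EFNA5, 4.61 for CHST1, 4.51 for TIPARP, 4.37 for RDH10, -4.45 for SPRY4, -3.41 for P2RY1, -3.35 for CDH10, -3.27 for TRIB1, 3.05 for SCNN1G, 2.85 for CYP1A1, 1.82 for STEAP4, -1.46 for C1orf116, -1.73 for MAOA and -0.83 for PMEPA1. The fitted value of EFNA5 depends on the prior count, since the VCaP libraries with darolutamide hold 0 reads of it.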

How the results depend on the processing

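None of 1799 recomputed values of single genes changed direction, and 106 lost and 34 gained a call. The 281 genes called with 2 µM darolutamide became 298 with DESeq2, 200 without a filter, 332 and 222 with control replicates 1 to 5 and 6 to 10, and 230 to 277 without single libraries. A GC term gave 662. Deviations of same-numbered 2 µM libraries correlated at -0.10 to 0.19 with R1881 (1 of 5 pairs over 0.1), at -0.21 to 0.60 with 500 nM (3 of 5) and at -0.39 to 0.38 with DMSO (1 of 5), and at -0.07 to 0.09 in all once the GC slope was removed. Not every pair exceeded 0.1 in any of these, so the numbers were not taken to pair the samples. With the replicate block, over replicates 1 to 5, 89 genes were called, 88 of them among the 281, and 1238 with the block and the GC term. The block left 17 of the 28 androgen-induced members and no call for SCNN1G, ST8SIA1, STAC, ATP13A4, SGK1, DUSP4, MYC or TMPRSS2.

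The 5 dose differences were 2 when only those groups were fitted, 43 with the GC term, 165 with the GC term and the replicate block, 5 with the block alone and 4 to 8 without single libraries, with 8 when replicate 2 of 500 nM was left out. The 2 differences from DMSO were 1 when only those groups were fitted (CYP1B1), 42 and 6 with control replicates 1 to 5 and 6 to 10, 1 with the replicate block (CYP1A1), 8 with the GC term, 955 with the GC term and the block, and 2 to 3 without single libraries. The 323 differences between the times were 192 without a filter, 188 with control replicates 6 and above, 209 with the replicate block, 907 with the GC term, 864 with the GC term and the block, and 261 to 293 without single libraries. The 6611 differences between the cell lines stayed between 5496 (replicate block) and 8624 (GC term). The causes were not tested. Calls close to the threshold (CH17-472G23.2, PEG10, HSPA5, TIPARP, CCND1) were lost under several alternatives, and depth limits statements on genes near 1 CPM.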
